A study of Mus musculus with 40 samples.

Results

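The genes of the mitogen-activated protein (MAP) kinase cascades were taken as all transcripts of the deposited table whose mouse RefSeq symbol begins with Mapk, Map2k, Map3k or Map4k. This rule uses names only, and it found 48 of the 6831 transcripts in the table, which belong to 31 of its 5863 gene symbols. RNA had been sequenced from the brain cortex of male C57BL/6 mice (C57Bl/6J in the study's methods) aged 12 weeks, in 40 libraries that the labels divide into 4 groups of 10. Saline was given to a sham group and to a group with high-frequency head impact (HF-HI), which is a series of closed head impacts without surgery, and memantine was given to a further sham and a further HF-HI group. Memantine, a blocker of the NMDA type of glutamate receptor, or saline was injected 1 h before each daily session, every mouse was anaesthetised with isoflurane, and the tissue was taken 24 h after the last session. The comparisons ask what head impact does to the cortical transcriptome and what differs when the drug is given beforehand. Where 4 values are listed below, they belong to the saline mice (sham, then HF-HI) and to the memantine mice (sham, then HF-HI), as mean ± SD with n = 10.

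MAP kinase cascades are relays of protein kinases, in which a MAP4K can activate a MAP3K, a MAP3K phosphorylates a MAP2K, and a MAP2K phosphorylates a terminal MAP kinase. The terminal kinases form the ERK arm, which follows Ras and Raf downstream of growth factors and of calcium entry through NMDA receptors, and the JNK and p38 arms, which respond to stress and cytokines. Scaffold proteins such as the JNK-interacting proteins hold kinases of an arm together, and in neurons some of them also link cargo to motor proteins on microtubules. The kinases are switched by phosphorylation, which RNA levels do not record.

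The prefixes gave 30 transcripts of 16 Mapk genes, 3 transcripts of 2 Map2k genes, 9 transcripts of 9 Map3k genes and 6 transcripts of 4 Map4k genes. Of the genes, 23 had 1 transcript in the table, and the other 8 held 25 transcripts between them. Mapkap1, a subunit of the mTORC2 kinase complex also called SIN1, and Mapk1ip1l carry the prefix without being cascade kinases. Map2k2, Map2k3, Map2k5, Map2k6, Map2k7, Mapk7, Mapk12, Mapk13 and Mapk15 were not analysed here.

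Values are normalised read counts, recovered from the deposited log2-like values. The summed count of a library over the transcripts in the table ran from 13322404 to 17529644. The mean correlation of a library with the others of its group lay between 0.948 and 0.959, so that none stood apart as a whole. The members took 0.451% to 0.501% of a library's counts in the table. No member was at 0 in any library, and the lowest mean count of a member transcript was 557. The lowest mean count of any transcript in the table was 549, so the table holds no transcript below that level. Gene sums, transcript shares and counts per kilobase cover only the transcripts listed in it. In bulk tissue, fewer cells of a type and less RNA per cell cannot be told apart. Of 12 listed markers of cortical projection neurons 11 were in the table, and Cux2, a gene of the upper cortical layers, was listed at 0 in 3 libraries. Markers of the neighbouring striatum were present in every library, with 18 of 26 symbols in the table and none of these at 0.

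Marker lists differed in how many of their transcripts passed a threshold of p under 0.05 by limma. Of all 6831 transcripts, impact gave an unadjusted p under 0.05 to 9.53% under saline and to 4.61% under memantine. Head impact under saline gave 11 of 32 striatal transcripts an unadjusted p under 0.05, all lower, with a summed count of 58650.4 to 88385 in saline sham and 59425 to 73502 in saline HF-HI. In the same comparison the transcripts higher at that threshold were 2 of 18 of cortical projection neurons, 2 of 17 of astrocytes, 2 of 6 of microglia, 2 of 4 of endothelium, 1 of 19 of oligodendrocytes and 0 of 5 of the thalamus. Under memantine, impact gave 2 of the astrocyte and 2 of the microglia transcripts higher, 1 of the striatal and 1 of the thalamic ones and, among the oligodendrocyte markers, 1 transcript higher and 1 lower.

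The cascade was uneven in level. To compare genes, counts were divided by transcript length in the GENCODE annotation, and the levels in this paragraph are normalised counts per kilobase over all 40 libraries. Among the terminal kinases, Mapk3 (ERK1) had 666. The JNK genes had 1308 (Mapk8, JNK1), 910.1 (Mapk10, JNK3, the form enriched in neurons) and 753 (Mapk9, JNK2), and the p38 genes 420.1 (Mapk14, p38 alpha) and 314 (Mapk11, p38 beta). Not divided by length, the mean JNK counts had another order, with 2666 for Mapk8, 3521 for Mapk9 and 6552 for Mapk10. The Mapk8 transcripts are annotated at 1310 to 5756 bases, so its value per kilobase depends on how reads were assigned to them. In the MAP2K tier, Map2k1 (MEK1, the activator of ERK) had 1607 and Map2k4 (MKK4, an activator of JNK) 802. The MAP3Ks ran from 139 for Map3k13 (LZK) to 440.3 for Map3k10 (MLK2), and the MAP4Ks from 162 for Map4k2 to 557 for Map4k4 (HGK). Among the scaffolds, Mapk8ip3 (JIP3) had 1506 and Mapk8ip1 (JIP1) 1046, against 572 for Mapk8ip2 (JIP2) and 239 for Mapkbp1. The atypical kinases Mapk4 (ERK4) and Mapk6 (ERK3), which lack the usual MAP2K activation, had 396 and 364, and Mapkapk5 (MK5), a kinase that both of them bind, had 257.

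Each comparison was fitted with limma over the whole table, and a transcript is said to be called where its unadjusted p was under 0.05, the criterion of the study. Head impact under saline called 3 of the 48 member transcripts, where 9.53% of all 6831 transcripts were called. Head impact under memantine called 5 (background 4.61%). Between the impacted groups, memantine against saline called 3 (background 3.91%), and between the sham groups it called 4 (background 7.51%). The interaction, which is the impact effect under memantine minus that under saline, called 1 (background 3.73%). The members' share lay below the background for impact under saline and for the interaction and above it in the other comparisons, with the highest share, 5 of 48 or 10.4%, for impact under memantine. No member had an adjusted p under 0.1 by limma with Benjamini-Hochberg adjustment over the table (background, in the order just used, 0.205%, 0.0146%, 0.0%, 0.0293% and 0.0%), and the smallest adjusted p was 0.229.

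The summed transcripts of each gene were fitted in the same way. Of the 31 sums, impact called 1 under saline (background 10.7%) and 2 under memantine (background 4.37%). Memantine against saline called 2 in impacted mice (background 3.65%) and 1 in sham mice (background 7.88%), and the interaction called 0 (background 3.58%), by limma at an unadjusted p under 0.05. Between the sham groups the sums lay below their background, while the transcripts had lain above theirs. No sum passed an adjusted p of 0.1 (background 0.358%, 0.0171%, 0.0%, 0.0512% and 0.0%). For impact under memantine the median change of the 31 sums was -0.01 on the log2 scale, beside -0.00 over all genes, with 14 sums above 0 and 17 below it. For impact under saline the median was -0.00, beside -0.00 over all genes, with 13 sums above 0 and 18 below it. The ranges of the groups overlapped in all 124 comparisons of a sum and all 192 of a transcript between 2 groups. Comparisons that use the same group share its 10 libraries.

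**Figure D1:**
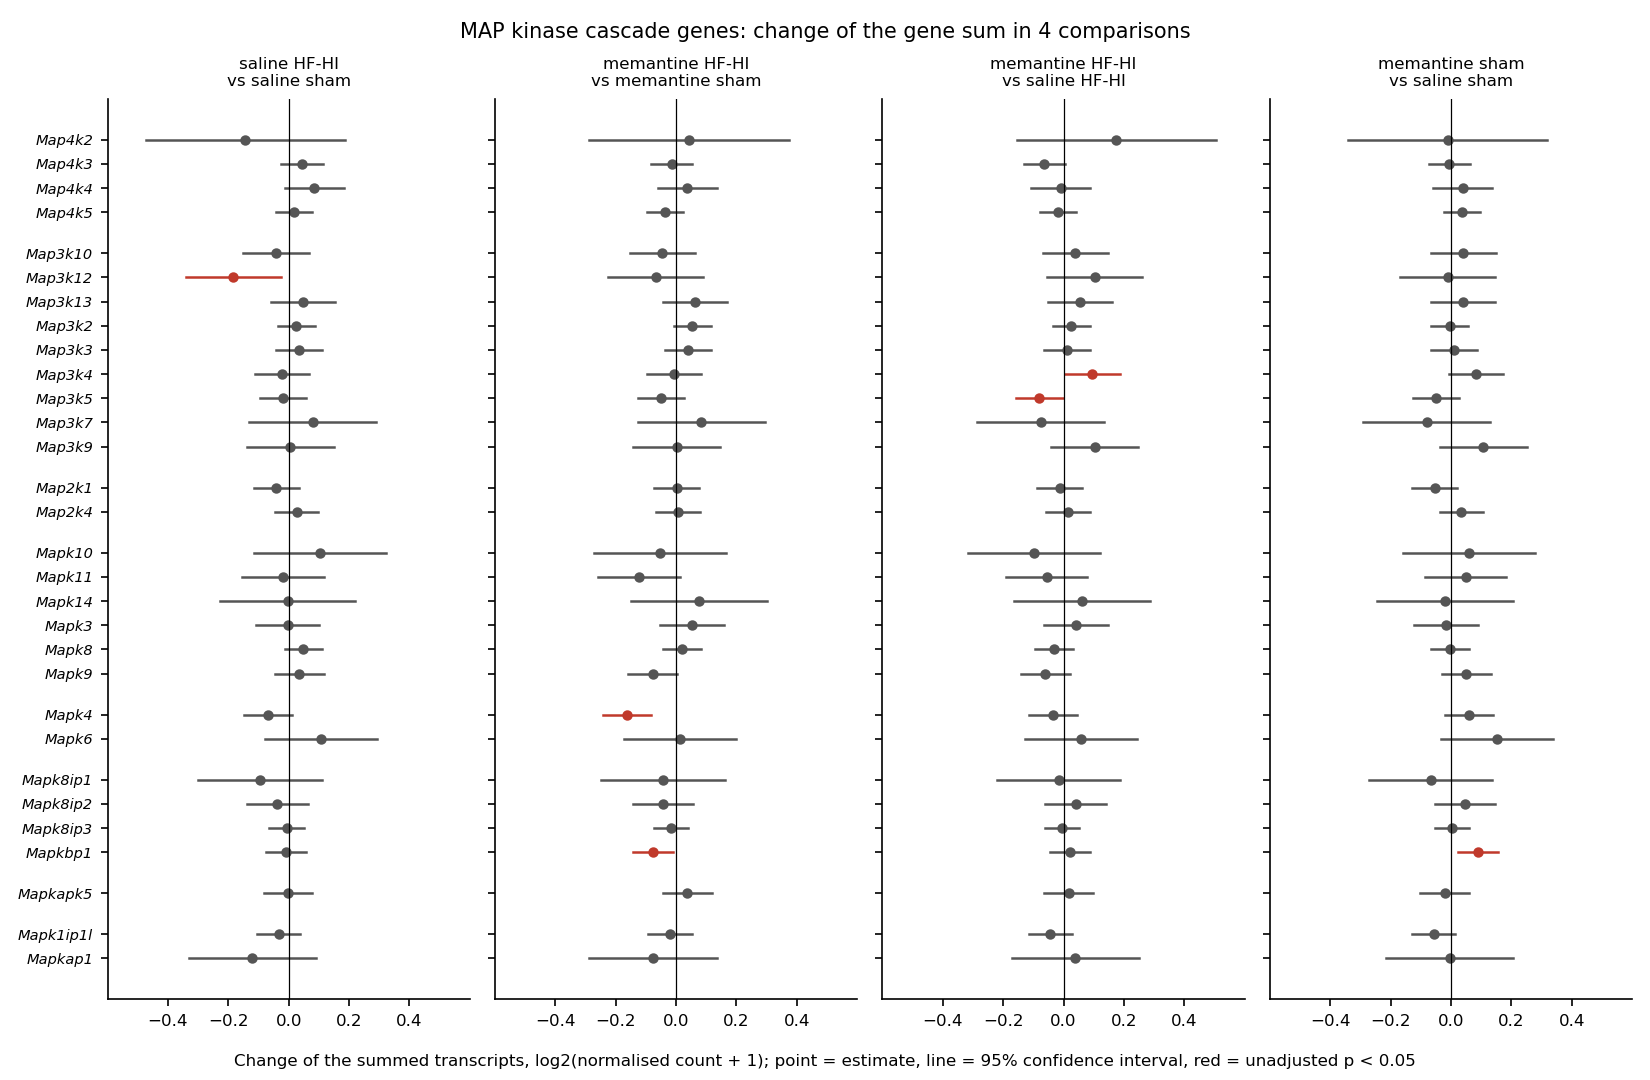
Change of the summed transcripts of 30 of the genes in 4 comparisons, on the log2(normalised count + 1) scale, arranged by tier of the cascade. Points are estimates, lines are 95% confidence intervals and red points have an unadjusted p under 0.05; Mapk4 in the memantine impact comparison has the smallest p, 0.000221.

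At the top of the cascade, no MAP4K was called in any comparison, as a transcript or as a sum. Map4k4, which acts upstream of JNK, had summed counts of 2083 ± 209, 2206 ± 172, 2135 ± 138 and 2190.1 ± 121 in the 4 groups. Its 3 transcripts divided this sum unevenly, with NM_001252201 at 19.1% to 58.7% of it and in the lead in 26 of 40 libraries. Map4k3 (GLK) and Map4k5 (KHS) were steady, with a coefficient of variation (CV) within groups of 5.28% and 4.48%. Map4k2 was the least steady member with 1 transcript, at 26.1%, and the 95% interval of its impact effect under saline, -0.47 to 0.19 on the log2 scale, spans the change of every other sum in that comparison.

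Among the 9 MAP3Ks, 3 were called, each in 1 comparison. Map3k12 encodes DLK, a kinase of neurons that relays axon injury to the nucleus through JNK (chr15:102497647-102517004, GRCm38). Its lowest, median and highest counts were 1672, 1811 and 1914 in saline sham and 1141, 1701 and 1916 in saline HF-HI. The impacted group reached below the sham group and ended at the same height. Its libraries 9 and 10 had 1141 and 1159, and the next lowest, library 7, had 1525. The fit was not repeated without libraries 9 and 10. The means were 1620.1 ± 275 and 1815 ± 75.9, a difference of -10.7%, and 8 of 10 impacted libraries lay below the sham mean (log2 change -0.18, SE 0.08, 95% interval -0.34 to -0.03, p = 0.0233 and adjusted p = 0.383 by limma, p = 0.0350 by permutation).

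Under memantine the Map3k12 means were 1809 ± 192 after sham and 1725 ± 184 after impact, a change of -0.07 (interval -0.23 to 0.09). The interaction was 0.12 (interval -0.11 to 0.34), so the impact effects under saline and memantine were not shown to differ. The mean deposited value of the striatal marker transcripts in each library was also used as a covariate. With it, the Map3k12 change under saline was -0.16 with p = 0.0674 by limma, which is no longer a call. The part of the striatal markers in this value was not tested further.

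Map3k4 (MEKK4, upstream of p38 and JNK; chr17:12227621-12318796) was called between the impacted groups. The lowest, median and highest Map3k4 counts were 1391, 1479 and 1712 in saline HF-HI and 1491, 1583 and 1799.7 in memantine HF-HI. The groups overlapped between 1491 and 1712, and 8 of 10 memantine libraries lay above the saline mean. The mean was 6.87% higher with memantine (log2 change 0.10, SE 0.04, 95% interval 0.01 to 0.19, p = 0.0367 and adjusted p = 0.997 by limma, p = 0.0337 by permutation). In the sham mice the change of Map3k4 with memantine was 0.08 (interval -0.01 to 0.17), which did not pass the test.

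Map3k5 (ASK1, a kinase activated by oxidative stress; chr10:19934101-20142750) was called in the opposite direction between the impacted groups. Counts of Map3k5 had a lowest, median and highest value of 1551, 1681 and 1845 in saline HF-HI and 1484, 1604 and 1699 in memantine HF-HI. The memantine group lay lower and overlapped the saline group between 1551 and 1699, with 9 of 10 libraries below the saline mean. The difference in means was -5.44% (log2 change -0.08, SE 0.04, 95% interval -0.16 to -0.00, p = 0.0418 and adjusted p = 0.997 by limma, p = 0.0159 by permutation). Between these groups 2 of the 32 striatal transcripts were called higher with memantine, against 3.91% of all transcripts called in either direction, and the striatal sum in memantine HF-HI ran from 55919.8 to 80299. With the mean deposited value of the striatal transcripts as a covariate, the log2 change was 0.09 for Map3k4 (p = 0.0531 by limma) and -0.06 for Map3k5 (p = 0.147). Neither was then called, and the part of the striatal markers was not tested further.

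The other 6 MAP3Ks were not called. Map3k10, the highest of the tier per kilobase, had counts of 1622 ± 141, 1575 ± 137, 1671 ± 159.6 and 1617 ± 117. Map3k2 (MEKK2) and Map3k3 (MEKK3) were the steadiest of the tier (CV 4.70% and 5.68%), and the intervals of their impact effect under saline were -0.04 to 0.09 and -0.04 to 0.11 on the log2 scale. Map3k7 (TAK1, which relays cytokine receptors) was the least steady at 16.1%.

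**Figure D2:**
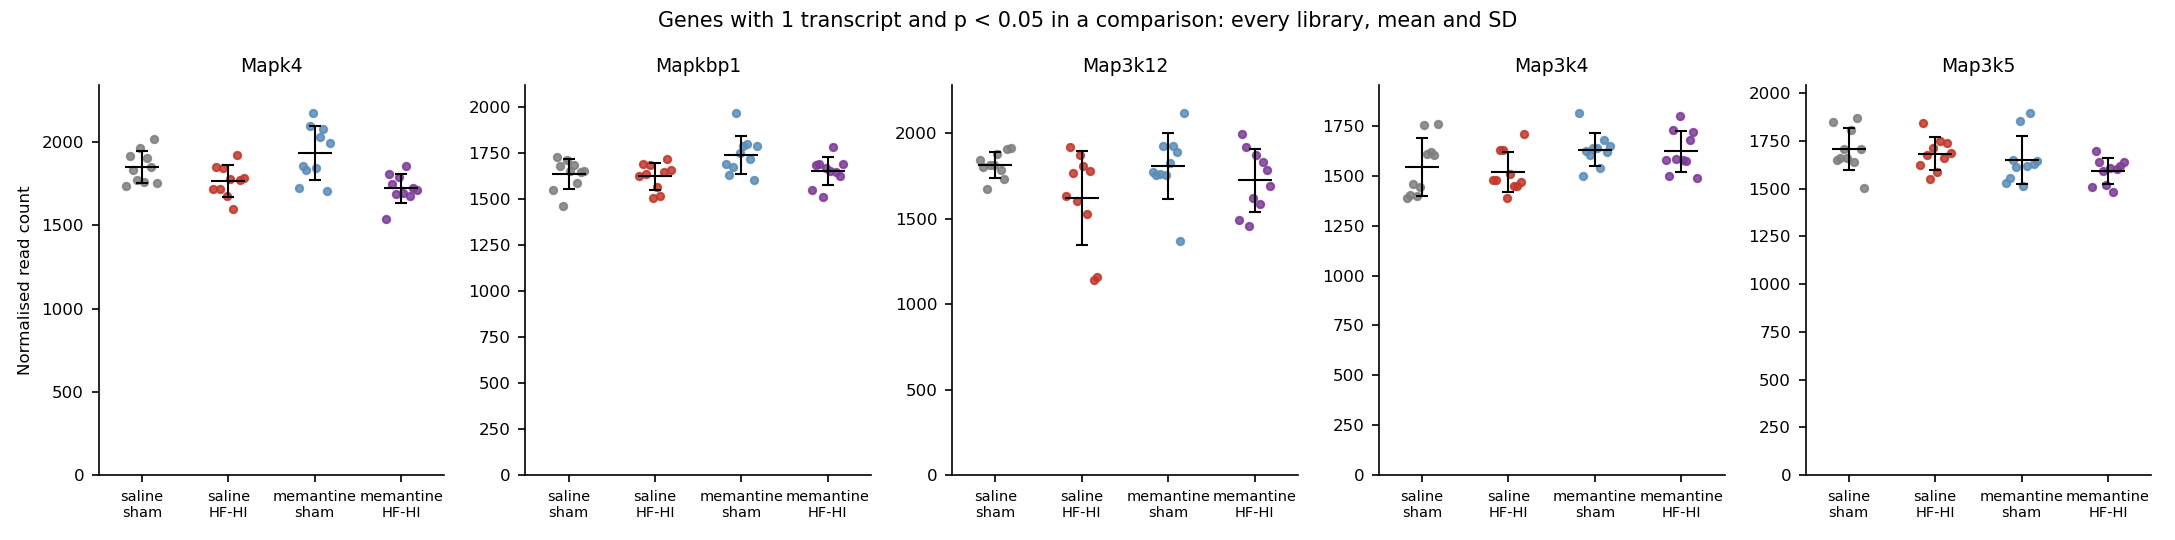
Normalised read count in each library (points) with group mean and SD (black) for the 5 genes with 1 transcript that were called in a comparison. The memantine HF-HI libraries of Mapk4 lie between 1539.6 and 1854, and the groups overlap for each gene.

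In the MAP2K tier, Map2k1 was even, at 4013 ± 188, 3905 ± 256, 3868 ± 232 and 3871 ± 215. The interval of its impact effect was -0.12 to 0.03 under saline and -0.07 to 0.08 under memantine on the log2 scale.

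Map2k4 (chr11:65688244-65788359) was as even in sum, at 2919 ± 246, 2964 ± 108, 2980.0 ± 110.5 and 2994 ± 105, but not in its transcripts. NM_001316367 and NM_009157 pair with the same GENCODE transcript, so how they differ was not resolved here. NM_009157 had lowest, median and highest counts of 369, 857 and 1302 in saline HF-HI and 227, 435 and 943 in memantine HF-HI. The memantine group lay lower, with 7 of 10 libraries below the saline mean, and the groups overlapped between 369 and 943. The difference in means was -36.3% (on the deposited scale, change -0.23, SE 0.09, 95% interval -0.40 to -0.05, p = 0.0127 and adjusted p = 1.000 by limma, p = 0.0315 by permutation).

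The share of NM_001316367 in the Map2k4 sum was 68.5% ± 13.1, 72.7% ± 10.1, 78.5% ± 7.49 and 82.9% ± 9.46 in the 4 groups. Shares were fitted over all 1674 transcripts of genes with several, and memantine against saline called the Map2k4 pair in impacted mice (p = 0.0198, adjusted p = 0.915 by limma) and in sham mice (p = 0.0400, adjusted p = 0.852). That pair makes up both calls among the 25 member shares in impacted mice (background 5.02%) and 2 of the 3 in sham mice (background 5.32%). The shares of a pair add to the whole and are 1 measurement. Saline sham library 2 had the lowest share of NM_001316367 among the 40 libraries, 41.3%, and the share fit was not repeated without that library.

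As a count, NM_001316367 was called between the sham groups, with lowest, median and highest values of 949, 2075 and 2664 in saline sham and 1935, 2398 and 2728 in memantine sham. Saline sham held the lowest library, and the upper ends of both groups lay close together. The mean was 16.1% higher with memantine (change 0.13, SE 0.06, 95% interval 0.01 to 0.25, p = 0.0386 and adjusted p = 0.636 by limma, p = 0.0683 by permutation). Without saline sham library 2, which holds the lowest value, the change was 0.07 and p = 0.136 by limma, so the call depends on that library. It was also lost when only the 2 groups compared were fitted, with that library kept.

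The terminal kinase Mapk3 of the ERK arm was not called. It had lowest, median and highest counts of 1002, 1234 and 1388 in saline sham and 1069, 1183 and 1377 in saline HF-HI. In the memantine mice they were 1055, 1186 and 1258 after sham and 1083, 1213 and 1387 after impact. The 4 groups overlapped over most of their ranges. The means were 1197 ± 122, 1192 ± 94.8, 1181 ± 74.0 and 1227 ± 94.6, and the 95% interval of the impact effect was -0.11 to 0.10 under saline and -0.05 to 0.16 under memantine on the log2 scale.

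The p38 kinases were not called either. Mapk11 had counts of 779 ± 80.9, 769 ± 75.0, 804 ± 73.0 and 741 ± 91.6, and its impact effect under memantine was -0.12 (interval -0.26 to 0.01). The Mapk14 sum was 1486 ± 239, 1483 ± 245, 1478 ± 279 and 1528 ± 99.3, and its interval under saline, -0.23 to 0.22, was wide. NM_001168508 made up 36.2% to 69.1% of that sum.

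The JNK genes were divided between transcripts. Mapk8 and Mapk9 each choose between a pair of coding exons of equal length in the kinase domain, and these exons are shown because they separate the transcripts whose counts follow. For Mapk9 they lie at chr11:49873836-49873907 and chr11:49874264-49874335 on the plus strand, and for Mapk8 at chr14:33390673-33390744 and chr14:33390242-33390313 on the minus strand of GRCm38 (mm10). The sequences come from the GENCODE transcripts, are read 5′ to 3′ on the strand of the gene, and have in capitals the bases at which the exons of a pair differ.
Mapk9 upstream exon, in NM_001163671: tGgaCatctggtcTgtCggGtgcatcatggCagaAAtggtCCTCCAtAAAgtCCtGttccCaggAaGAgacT
Mapk9 downstream exon, in NM_207692: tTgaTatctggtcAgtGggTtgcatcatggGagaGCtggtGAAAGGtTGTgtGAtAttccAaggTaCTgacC
Mapk8 upstream exon, in NM_016700: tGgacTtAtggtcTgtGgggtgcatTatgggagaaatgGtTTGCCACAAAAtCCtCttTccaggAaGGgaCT
Mapk8 downstream exon, in NM_001310452: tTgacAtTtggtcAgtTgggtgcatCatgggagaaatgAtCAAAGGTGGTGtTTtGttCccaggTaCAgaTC

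Each exon has 72 bases. The Mapk9 pair differs at 25 of them (65.3% identity) and the Mapk8 pair at 27 (62.5%). Exons in the same position of the 2 genes are closer, with 13 differing bases between the upstream ones (81.9%) and 15 between the downstream ones (79.2%).

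In Mapk9 (chr11:49846728-49886421) the transcript with the downstream exon, NM_207692, was called for impact under memantine. This transcript had lowest, median and highest counts of 1548, 2071 and 2355 in memantine sham, beside 1479, 1732 and 2071 after impact under memantine. The impacted group lay lower, with 9 of 10 libraries below the sham mean, and overlapped the sham group between 1548 and 2071. The difference in means was -11.5% (on the deposited scale, change -0.09, SE 0.04, 95% interval -0.17 to -0.01, p = 0.0301 and adjusted p = 0.967 by limma, p = 0.0262 by permutation). The transcript with the upstream exon had 1602 ± 347 and 1639 ± 213 reads in these groups and was not called.

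The Mapk9 sum was 3488 ± 280.0, 3565 ± 174, 3611 ± 248 and 3418 ± 142 in the 4 groups. Its impact effect under memantine, -0.08 with p = 0.0613 by limma, and the interaction, -0.11 with p = 0.0559, both missed the threshold. The share of NM_207692 was 55.4% ± 6.66, 53.2% ± 6.50, 55.9% ± 7.76 and 52.1% ± 5.21, and no share of Mapk9 was called.

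Mapk8 (chr14:33377898-33447353) was steady in sum and the least steady member in its transcripts. Its summed count was 2636 ± 113, 2729 ± 152, 2632 ± 117 and 2668 ± 127, with a CV within groups of 4.80%, while the CVs of its 4 transcripts ran from 41.8% to 67.3%. The share of NM_001310452 was lowest in the library memantine sham 3, at 4.60% of the sum, and highest in memantine HF-HI 1, at 77.5%, and each of the 4 transcripts led in some library. No transcript or share of Mapk8 was called.

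Summed over the transcripts that hold it, the upstream exon of Mapk8 took 48.6% ± 19.0, 53.7% ± 16.9, 47.6% ± 24.3 and 48.8% ± 21.3 of the count in the 4 groups. Transcripts with the longer coding end took 44.7% ± 8.67, 40.1% ± 11.3, 44.9% ± 16.9 and 38.5% ± 18.7. The spread within each group exceeds the distance between group means, and these exon sums were not tested.

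Mapk10 (chr5:102908547-103212604) had a summed count of 6357 ± 1072, 6801 ± 917, 6620.0 ± 1068 and 6430.0 ± 1346, with the widest spread among the sums of genes with several transcripts (CV 17.0%). None of its 5 transcripts and none of its shares was called. NM_001081567, NM_001310683 and NM_001318102 pair with the same GENCODE transcript, and so do NM_001310686 and NM_009158, so how the members of each set differ was not resolved here. Its transcripts with the longer coding end took 52.2% ± 8.86, 50.9% ± 9.63, 48.4% ± 11.8 and 47.0% ± 10.3 of the sum.

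**Figure D3:**
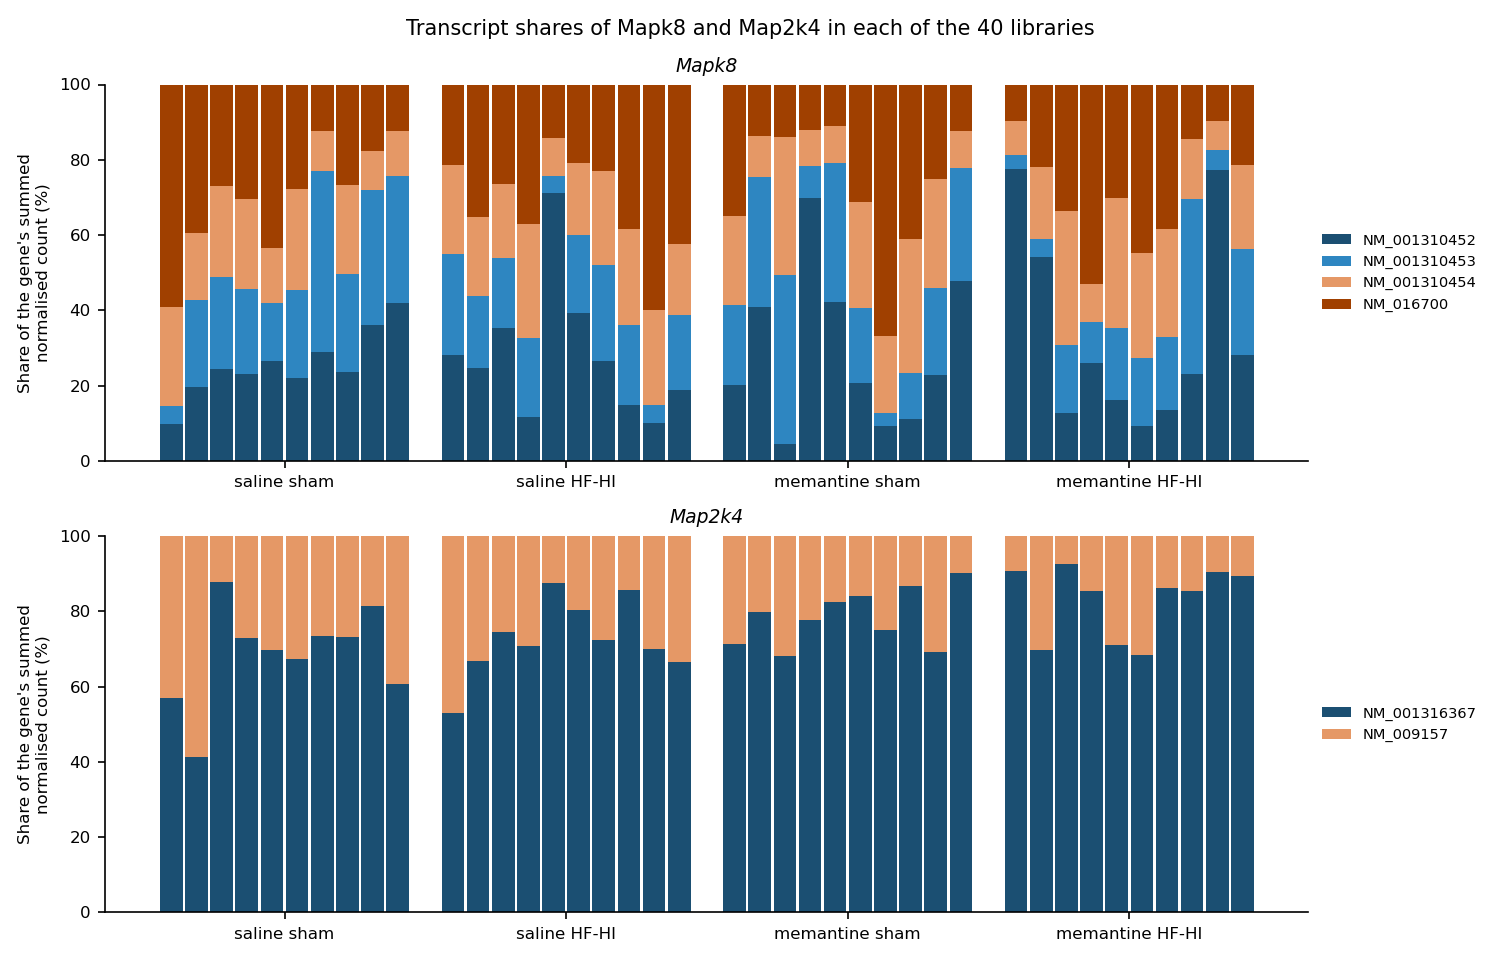
Share of each gene's summed normalised count taken by each of its transcripts, for Mapk8 and Map2k4, 1 bar for each of the 40 libraries in 4 groups of 10. The make-up of Mapk8 changes from library to library within every group, with NM_001310452 between 4.60% and 77.5%, and NM_001316367 leads Map2k4 in 39 of 40 libraries.

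The atypical kinase Mapk4 (NM_172632) had the smallest p of the 31 sums in any comparison. Its lowest, median and highest counts were 1704, 1924 and 2173 in memantine sham, beside 1539.6, 1719 and 1854 after impact under memantine. All 10 impacted libraries lay below the sham mean, and the groups overlapped between 1704 and 1854. The means were 1725 ± 87.1 after impact and 1934 ± 163 after sham, a difference of -10.8% (log2 change -0.16, SE 0.04, 95% interval -0.24 to -0.08, p = 0.000221 and adjusted p = 0.333 by limma, p = 0.00218 by permutation).

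In the saline mice the lowest, median and highest Mapk4 counts were 1738, 1842 and 2017 after sham and 1597, 1774 and 1922 after impact. These groups lay closer together, and the change of -0.07 (interval -0.15 to 0.01, p = 0.0947 by limma) did not pass. The interaction was -0.09 (interval -0.21 to 0.02, p = 0.103), so the impact effects under saline and memantine were not shown to differ. Gfap, the filament protein of reactive astrocytes, was higher after impact under memantine (1613 ± 257 against 1179 ± 146 reads, change 0.20, p = 0.000257 and adjusted p = 0.351 by limma). It was also higher after impact under saline, where Mapk4 was not called (1546 ± 347 against 1253 ± 230 reads, change 0.14, p = 0.0111 and adjusted p = 0.374 by limma). The median change of the 17 astrocyte transcripts under memantine was -0.008. The summed astrocyte markers (11 of 12 in the table, Fgfr3 listed at 0 in 1 library) ran from 150168 to 154206 in memantine sham and from 143501 to 155638 in memantine HF-HI. In the same groups the microglia markers (6 of 12, none at 0) ran from 5182 to 6099 and from 5249 to 6388. Their part in the Mapk4 value was not tested.

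The related Mapk6 had counts of 1382 ± 236, 1473 ± 136, 1536 ± 266 and 1536 ± 169 and was not called. Mapkapk5, the kinase that binds both, was even, at 574 ± 29.8, 573 ± 22.9, 567 ± 50.5 and 580.1 ± 19.8.

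Among the 4 scaffold genes, Mapkbp1, whose protein binds JNK (chr2:119972390-120027403), was called in a pair of comparisons that share the memantine sham mice. Mapkbp1 had lowest, median and highest counts of 1462, 1651 and 1726 in saline sham and 1505, 1641 and 1715 in saline HF-HI. In the memantine mice they were 1603, 1731 and 1964 after sham and 1509.8, 1659 and 1782 after impact. Memantine sham stood higher than the others and overlapped each of them. Its mean was 6.41% above that of saline sham (log2 change 0.09, SE 0.03, 95% interval 0.02 to 0.16, p = 0.00986 and adjusted p = 0.530 by limma, p = 0.0176 by permutation).

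Within memantine, the Mapkbp1 mean after impact differed from that after sham by -5.16% (log2 change -0.08, SE 0.03, 95% interval -0.14 to -0.01, p = 0.0266 and adjusted p = 0.959 by limma, p = 0.0368 by permutation). Under saline the impact effect was -0.01 (interval -0.08 to 0.06), and the interaction of -0.07 (interval -0.16 to 0.03) was not called.

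Mapk8ip3 encodes JIP3, a scaffold for JNK that also links cargo to kinesin and dynein in axons (chr17:24897506-24936977, minus strand). Its 5 transcripts differ in coding sequence at 1 segment, and NM_001163449 has a further exon of 24 bases at chr17:24920472-24920495. The transcripts also differ in annotated length, with 4125 bases for NM_001163447 and 4173 for NM_001163451, against 5410 to 5543 for the others. Their coding lengths run from 3915 to 4011 bases, so most of this difference lies outside the coding sequence. Whether the counts follow the segment or this other sequence was not tested. The segment is shown because it is a coding difference between the transcripts that were called. At its longest it lies at chr17:24917995-24918139 (GRCm38), and capitals mark the bases that are not in all 5 transcripts: 3 at the upstream end and 93 at the downstream end, around 49 common bases. The sequences are those of the GENCODE transcripts, 5′ to 3′ on the strand of the gene.
NM_013931: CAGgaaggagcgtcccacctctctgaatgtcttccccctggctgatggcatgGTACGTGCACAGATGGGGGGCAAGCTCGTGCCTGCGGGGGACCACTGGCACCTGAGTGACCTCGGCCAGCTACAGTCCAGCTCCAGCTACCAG
NM_001163447: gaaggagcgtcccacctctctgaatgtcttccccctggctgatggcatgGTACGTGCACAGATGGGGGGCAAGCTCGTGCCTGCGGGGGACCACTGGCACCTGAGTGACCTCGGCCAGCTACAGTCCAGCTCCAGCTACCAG
NM_001163450: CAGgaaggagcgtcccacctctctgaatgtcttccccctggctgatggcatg
NM_001163451: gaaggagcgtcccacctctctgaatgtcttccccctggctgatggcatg

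NM_001163449 has the same segment as NM_001163450. The sum of the Mapk8ip3 transcripts was 7864 ± 332, 7829.5 ± 389.6, 7890.3 ± 352 and 7803 ± 276, with a CV of 4.33%. The interval of its impact effect was -0.06 to 0.05 under saline and -0.07 to 0.04 under memantine on the log2 scale. NM_013931 led in all 40 libraries, with 54.8% of the sum on average.

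NM_001163447, the long form without the 3 upstream bases, was called in 4 of the 5 comparisons. Its lowest, median and highest counts were 672, 982 and 1533 in saline sham and 403, 706 and 1033 in saline HF-HI. In the memantine mice they were 234, 548 and 818 after sham and 302, 689.9 and 1142 after impact. Saline sham was the high group and memantine sham the low one, the impacted groups lay between them, and all ranges overlapped, those of the sham groups between 672 and 818. The means were 993 ± 298, 737 ± 209, 528 ± 166 and 739 ± 276.

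Against saline sham, the mean of NM_001163447 in memantine sham differed by -46.8%, with all 10 libraries below the saline mean (on the deposited scale, change -0.32, SE 0.07, 95% interval -0.46 to -0.17, p = 0.000101 and adjusted p = 0.229 by limma, p = 0.000280 by permutation). Against the same saline sham mice, saline HF-HI differed by -25.8% (change -0.16, SE 0.07, 95% interval -0.31 to -0.01, p = 0.0357 and adjusted p = 0.490 by limma, p = 0.0393 by permutation). Within memantine the mean was 39.9% higher after impact (change 0.15, SE 0.07, 95% interval 0.00 to 0.30, p = 0.0456 and adjusted p = 0.967 by limma, p = 0.0688 by permutation). The interaction was 0.31, since the impact effect was negative under saline and positive under memantine (change 0.31, SE 0.10, 95% interval 0.10 to 0.52, p = 0.00474 and adjusted p = 0.999 by limma).

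As a share of the gene, NM_001163447 made up 12.6% ± 3.54, 9.41% ± 2.54, 6.70% ± 2.11 and 9.40% ± 3.36 in the 4 groups. The share was called in the same comparisons, with the smallest p between the sham groups (p = 9.47e-05, adjusted p = 0.159 by limma). For impact under memantine this share lost its call in both alternatives run, percent shares and the replicate block (p of 0.0593 to 0.0596 by limma). Impact called 2 of the 25 member shares under saline (background 5.26%) and 2 under memantine (background 4.66%), all of Mapk8ip3, and the interaction called 1 (background 4.0%).

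NM_001163450, the short form with the 3 bases, was called in the other direction. Its lowest, median and highest counts were 709, 1376 and 1895 in saline sham and 1369, 1735 and 2279.6 in saline HF-HI. The impacted group lay higher, with 9 of 10 libraries above the sham mean, and overlapped the sham group between 1369 and 1895. The mean was 27.0% higher after impact (change 0.17, SE 0.06, 95% interval 0.05 to 0.29, p = 0.00532 and adjusted p = 0.306 by limma, p = 0.0122 by permutation). Against the same saline sham mice, memantine sham was 20.2% higher (change 0.13, SE 0.06, 95% interval 0.01 to 0.25, p = 0.0309 and adjusted p = 0.634 by limma, p = 0.0757 by permutation).

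The leading form NM_013931 was called for impact under memantine. This form had lowest, median and highest counts of 4082, 4505 and 5086 in memantine sham, beside 3269.5, 4149 and 4631 after impact under memantine. The impacted group lay lower, with 9 of 10 libraries below the sham mean, and the groups overlapped. The difference in means was -9.97% (change -0.10, SE 0.05, 95% interval -0.19 to -0.01, p = 0.0273 and adjusted p = 0.967 by limma, p = 0.0210 by permutation). NM_001163449, with counts of 575 ± 182, 548 ± 201, 544 ± 195 and 598 ± 204, and NM_001163451, with 514 ± 123, 603 ± 247, 587 ± 171 and 578 ± 189, were not called.

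Read by the end of the segment instead of by transcript, the long forms together took 68.3% ± 5.59, 62.6% ± 3.67, 64.4% ± 4.97 and 62.0% ± 4.27 of the Mapk8ip3 count in the 4 groups. Forms with the 3 upstream bases took 80.9% ± 3.76, 82.9% ± 4.95, 85.9% ± 2.62 and 83.2% ± 4.32. These sums were formed with the transcript values known and were not tested.

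**Figure D4:**
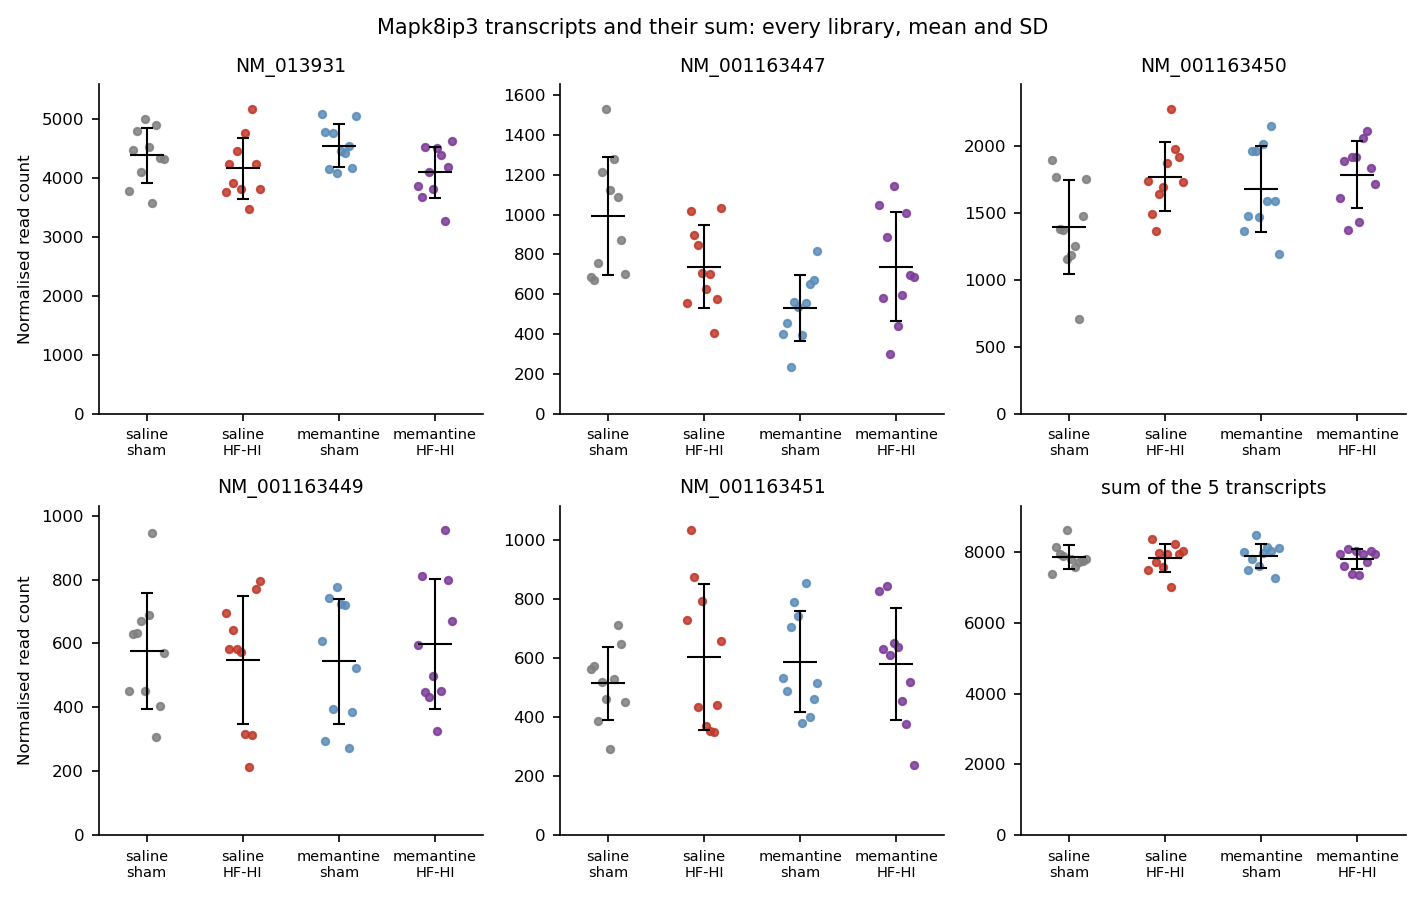
Normalised read count of the Mapk8ip3 transcripts and of their sum in each library (points), with group mean and SD (black), 10 libraries a group. NM_001163447 has its highest mean in saline sham (993) and its lowest in memantine sham (528), while the sum stays between 7025 and 8614 in all 40 libraries.

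The remaining scaffolds were not called. The Mapk8ip1 sum was 3347 ± 476, 3134 ± 448, 3199.5 ± 504 and 3115 ± 549, and Mapk8ip2 had 3170.5 ± 218, 3095 ± 276, 3278 ± 260.2 and 3177 ± 224. Mapkap1 and Mapk1ip1l were not called either, with Mapkap1 at 795 ± 149, 726 ± 119, 784 ± 105 and 744 ± 106.

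Transcripts of divided genes varied more than the sums they form. The 25 transcripts of genes with several had a median CV within groups of 31.1% (10.5% to 67.3%). The 8 sums of the same transcripts had a median of 6.90% (4.33% to 17.0%), beside 6.99% for the 23 genes with 1 transcript. Over the whole table, transcripts of symbols with several had a median of 23.0% and the others 6.61%. Counting error alone gives a CV of 4.24% at the lowest member mean, and it does not cover how reads were assigned to transcripts that share most of their bases.

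**Figure D5:**
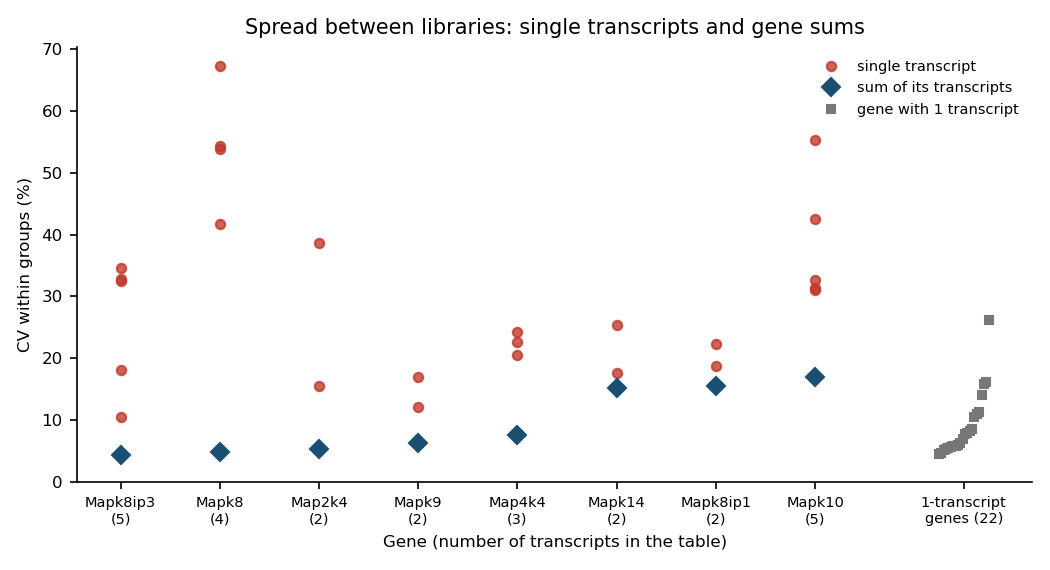
CV within groups of each transcript and of the summed count for the 8 genes with several transcripts, and of 22 genes with 1 transcript. The Mapk8 transcripts lie at 41.8% to 67.3% and their sum at 4.80%.

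Genes that feed, brake or follow the cascades without carrying these prefixes were counted on 7 lists of 145 symbols, of which 94 with 121 transcripts were in the table. Impact called 14 of the 121 under saline (9 higher, 5 lower) and 4 under memantine (1 higher, 3 lower). Memantine against saline called 8 in impacted and 12 in sham mice, the interaction called 7, and none of these had an adjusted p under 0.1. Of all 6831 transcripts, 9.53% were called for impact under saline and 4.61% under memantine, 3.91% for memantine against saline in impacted and 7.51% in sham mice, and 3.73% for the interaction. These shares are the background of every list count that follows, and with lists of this size no count is read as a result about its list.

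Among 13 transcripts of MAP kinase phosphatases, 2 were called higher and 0 lower for impact under saline, where the background was 9.53%. They were Dusp6, which removes phosphate from ERK (1415 ± 198 against 1107 ± 116 reads, change 0.15, p = 0.000696 and adjusted p = 0.165 by limma), and Dusp14 (736 ± 81.0 against 652 ± 79.1 reads, change 0.06, p = 0.0281 and adjusted p = 0.464 by limma). Among 23 transcripts of transcription factors that MAP kinases regulate, 2 were called for impact under saline, both higher, against the same background. They were the immediate early gene Junb (866 ± 245 against 528 ± 177 reads, change 0.24, p = 0.000532 and adjusted p = 0.145 by limma) and Atf4, a factor of the stress response (1374 ± 79.6 against 1307 ± 60.8 reads, change 0.03, p = 0.0450 and adjusted p = 0.508 by limma). For impact under memantine, no phosphatase was called by limma at that threshold, and the transcription factors gave 1 lower transcript, NM_001033713 of Mef2a (2220.3 ± 1441 against 3452 ± 284 reads, change -0.51, p = 0.00186 and adjusted p = 0.809 by limma).

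Among 27 transcripts of Ras and Raf activators, 1 was called higher and 3 lower under saline (background 9.53%) and none under memantine (background 4.61%), with the kinase Araf lower (1856 ± 82.5 against 1961 ± 104 reads, change -0.04, p = 0.0183 and adjusted p = 0.428 by limma). Among 15 transcripts of brakes of Ras and ERK, the 1 call in each impact comparison was Spry2, a feedback inhibitor. It was higher under saline (868 ± 64.5 against 806 ± 53.9 reads, change 0.04, p = 0.0164 and adjusted p = 0.415 by limma) and lower under memantine (785 ± 43.6 against 837 ± 51.9 reads, change -0.03, p = 0.0395 and adjusted p = 0.967 by limma). Scaffolds and adaptors outside the prefixes gave 1 of 19 higher in each impact comparison, Cnksr2 NM_001310719 under saline and Iqgap1 under memantine. The other MAP3K and STE20 kinases gave Stk39 higher and Pak3 NM_001195046 lower under saline, and Mink1 NM_016713 lower under memantine, of 18 transcripts. Of 6 transcripts of kinases downstream, a pair from Rps6ka3 (RSK2) was called in opposite directions under saline, NM_001346675 higher and NM_148945 lower, and none was called under memantine.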

How the data were processed

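Cortical RNA of 40 mice in 4 groups of 10, taken from the labels, was analysed at the level of transcripts. The series' design text gives 4 samples per group where 10 are listed, so n counts the listed libraries. The authors deposited log2-like values, the variance-stabilised counts of DESeq2. The study's methods name alignment to mm10 with STAR and counting per transcript with eXpress, while the submitters' processing notes name HISAT2 and StringTie with mm10, so which tools made the table was not settled. The authors normalised these counts with DESeq2. The deposited values were inverted to normalised counts with the floor of 10.4 as a count of 0, and all values under 5000 (92.4% of the table) were then whole multiples of 1 read, with a tolerance of 0.1. A difference on the deposited scale is smaller than a log2 ratio of counts, most so for low transcripts.

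The members were found by symbol, and the members and gene lists were chosen with earlier results of these data known. Group means were fitted with limma 3.58.1 in R 4.3.3, with a trended prior and all 40 libraries, over 6831 transcripts, over 5863 summed genes as log2(count + 1), and over the arcsine square root of 1674 transcript shares, with Benjamini-Hochberg adjustment over each table. Limma replaces the count test of the study. Single values were also compared by two-sided permutation with 100000 resamples in scipy 1.17.1. Nothing in the labels ties libraries to cages or batches, so a p-value measures the spread between these libraries. The pipeline was tested on simulated data. Library sums over the transcripts in the table ran from 13322404 to 17529644 counts. The counting error stated in the report was computed from the mean normalised count of a transcript and covers counting only.

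Named with values are each member called in a comparison, Mapk4 and Mapk8ip3, the terminal kinases and MAP2Ks, genes with called or the most variable shares, the highest gene per kilobase in each role, and from each other list at most the 2 transcripts with the smallest p in an impact comparison. Map4k2, Map4k3, Map4k5, Map3k2, Map3k3, Map3k7, Map3k13, Mapkapk5, Mapkap1, Mapk8ip1 and Mapk8ip2 were added as examples after their values were seen. Replicate numbers did not pair the libraries. The alternatives were 11 chosen at the outset and 1 added after seeing the data. Sequences and lengths come from GENCODE M21 transcripts of GRCm38, for all 48 members. Results for some items are not reported here.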

Additional observations from a re-analysis of the deposited data

Results flagged for a closer look

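Within a group of 10, a library was marked where its distance to the nearest other library took up an unusually large part of the group's range by Dixon's criterion. This was checked for 16 of the 31 genes, those named as called members, terminal kinases, MAP2Ks or genes with the most variable shares, and not for the others. Of 156 groups of values, 14 had such a library, where a rate of 1 in 20 gives about 7.8. That rate assumes normal values, which was not checked, and some groups are sums of others, so no excess is read from these counts. In the MAP2K tier, saline sham library 2 was the lowest for the Map2k4 sum (2297 against a nearest value of 2751) and for its transcript NM_001316367 (949 against a nearest value of 1789.7), and memantine HF-HI library 2 was the lowest for Map2k1 (3362 against a nearest value of 3745). Memantine sham library 2 was the lowest for the Mapk14 sum (778 against a nearest value of 1344) and for its transcript NM_001168508 (408 against a nearest value of 735). Memantine sham library 9 was the lowest for Map3k12 (1368 against a nearest value of 1752), and memantine sham library 1 was the highest for NM_001252201 of Map4k4 (1358 against a nearest value of 835).

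The other 7 were high values of JNK transcripts. For Mapk10, whose 3 transcripts named here pair with 1 GENCODE transcript, NM_001081567 had 1220.0 against a nearest value of 835 in memantine sham library 9 and 1469 against a nearest value of 790.3 in memantine HF-HI library 10. NM_001310683 had 2619 against a nearest value of 1999.6 in saline sham library 3. NM_001318102 had 1809.9 against a nearest value of 1147 in saline HF-HI library 4 and 1377 against a nearest value of 887 in memantine HF-HI library 9. For Mapk8, NM_001310452 had 2031 against a nearest value of 1095 in saline HF-HI library 5, and NM_016700 had 1729.9 against a nearest value of 1048 in saline HF-HI library 9.

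The estimated effect of impact on NM_001163447 of Mapk8ip3 was negative under saline and positive under memantine. The means of the impacted groups were alike (737 with saline, 739 with memantine), while those of the sham groups were 993 and 528. The interaction, the 1 called among the 48 member transcripts (background 3.73%), was 0.31 on the deposited scale (p = 0.00474 by limma, adjusted p = 0.999). The p kept under the threshold in all 10 alternatives that give this value, while the adjusted p did not pass in any of them.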

How the results depend on the processing

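Each called value of a member transcript, sum or share was refitted under the alternatives that give it. Of these pairs of a called value and an alternative, 251 kept their direction and the call, 21 lost the call and 0 reversed. Members that were not called enter only the counts of calls given below. The calls of Mapk4 and Mapkbp1, of NM_207692 of Mapk9 and of NM_013931 of Mapk8ip3 held under every alternative run, and no scaling moved the median of all transcripts by more than 0.1 on the log2 scale. The transcript calls of Map3k12 and Map3k4 were lost with the striatal covariate, and that of Map3k5 with this covariate, the replicate block and library weights. For Mapk8ip3, NM_001163447 lost its call for impact under memantine in 4 of 11 alternatives and for impact under saline in 1, and NM_001163450 lost its call between the sham groups in 2 of 12. NM_001316367 of Map2k4 also lost its call between the sham groups in 2 of 12. Of the counts of calls, 114 stayed within 1.5 times and 9 did not. With only the 2 groups compared, memantine against saline in impacted mice called 5 transcripts instead of 3. Requiring a mean count of at least 1000 left 26 members and an interaction count of 0 instead of 1. The striatal covariate gave 0 gene sums for impact under saline (1 without it), 4 for impact under memantine (2 without it) and 1 for memantine against saline in impacted mice (2 without it). Library weights gave 1 gene sum for the interaction instead of 0. Percent shares in place of the arcsine scale gave 1 share for impact under memantine instead of 2. The cause of these shifts was not tested. Replicate numbers were fitted as a block although they do not pair the libraries (4 of 60 same-numbered pairs had r over 0.1, and 3 of 40 libraries correlated best with their own number). The replicate block called 1 gene sum for memantine against saline in impacted mice and 1 share for impact under memantine, each instead of 2. For members that were not called, the intervals in the report give the sizes that the data do not exclude.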
